A study of Mus musculus with 12 samples.

Results

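Mouse epiblast cells that had been turned into cells resembling embryonic stem (ES) cells were compared, on microarrays, with the states at either end of that conversion: ES cells and cultured epiblast (cEpi). The reprogrammed cells, called rEpiES, were measured at passage 4 and at passage 24. The comparison held all 12 arrays of the study, 6 of rEpiES (3 at each passage) against 6 of the references (3 of ES cells and 3 of cEpi). The genes described are those for which both rEpiES passages lay above both references, or below both. They numbered 889 above and 661 below among 8812 genes tested. Transcripts of the pluripotency factors Klf2, Tcl1, Zfp42 and Dppa4 were higher in rEpiES than in either reference. So were those of germ-cell genes such as Dazl and Sohlh2. Transcripts of primitive-streak and mesendoderm factors such as Foxa2, Lhx1 and Mixl1 were lower in rEpiES than in either reference. Many listed genes of these kinds were outside in neither direction. These were 12 of 15 core pluripotency genes, Pou5f1 and Sox2 among them, 8 of 15 naive genes and 9 of 15 germ-cell genes. The same held for 9 of 15 primitive-streak and mesendoderm genes and for 9 of 11 endoderm genes. Among all tested genes 10.1% lay above both references and 7.5% below both, so most genes of any kind were in neither.

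Per the labels, embryos at E5.5 to E7.5 came from 129/sv or ROSA 129/Sv mothers, and the fathers carried the Oct4-△PE-EGFP transgene. Epiblast cells were grown in DMEM/F12 with 20% fetal bovine serum and 1000 U/ml leukaemia inhibitory factor (LIF) on mitomycin-treated embryonic fibroblasts as feeders, and clones with GFP-positive cells, which appeared after 14 to 35 days, were picked by hand and expanded as rEpiES. The rEpiES cells were therefore chosen for reporter activity and descend from picked clones. The labels of the ES arrays give the same embryo crosses but no culture conditions, the cEpi labels give the dissection of the epiblast but no medium, and in no group is it stated if its 3 arrays stand for separate lines or cultures. The p-values therefore measure the spread between arrays, which may be technical.

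ES cells represent the naive state of pluripotency, that of the epiblast before implantation. It is marked by the transcription factors of the Klf and Rex1 (Zfp42) type and is maintained in mouse cells by LIF acting through STAT3. After implantation the epiblast turns these genes down, raises Fgf5 and Otx2, and becomes ready to form the primitive streak under Nodal, BMP, WNT and FGF signals. The deleted part of the Oct4 transgene is its proximal enhancer, so GFP reports the distal enhancer, which is used in naive cells and germ cells.

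The files came in 2 layouts, 1 shared by cEpi and passage 4 and 1 by ES and passage 24, so each side of the comparison held 3 arrays of each layout. The balanced difference, the mean of both rEpiES groups minus the mean of both references, equals the average of the differences within the layouts, passage 4 minus cEpi and passage 24 minus ES. Differences between the passages, between the references, and of passage 4 to ES or passage 24 to cEpi cross the layouts. In those, layout and cells cannot be told apart. Where the references differ, rEpiES cells at the level of 1 of them still have a balanced difference. The gene Dnmt3l, described below, had a balanced difference of 2.12 with passage 24 only 0.032 above ES cells. A balanced difference is therefore no sign that a gene lies beyond both references. A probe was tested when its signal-to-noise score was 3 or more on all 3 arrays of at least 1 group. Arrays of ES cells detected 12061 to 13827 of 33012 probes and had a median SD between arrays of 0.24 on the log2 scale, against 0.087 to 0.113 in the other groups. Those of the other groups detected 14329 to 16537 probes. The SEs and p-values below pool the spread of all groups for each probe. For a typical probe they therefore understate the spread of the ES arrays and overstate that of the others. All values below are the authors' quantile-normalised log2 signals, on which a difference of 1 is 2-fold, and levels of different genes cannot be compared.

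The balanced difference was called for 64.6% of the 15235 tested probes by limma (Benjamini-Hochberg adjusted p under 0.05), 5074 higher and 4774 lower in rEpiES. Among genes, each represented by the brightest of its probes, 35.5% were higher and 32.4% lower. A call above both references asked more: each of the 4 differences between a passage and a reference positive at adjusted p under 0.05, and the lowest of the 6 rEpiES arrays above the highest of the 6 reference arrays. It was met by 9.1% of probes and by 10.1% of genes. Calls below both references, defined the other way round, took in 7.38% of probes and 7.5% of genes. Of these probes, 450 above and 447 below carried no single gene symbol and are counted but not named.

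How far a gene lay outside is given by its gap, the smallest in size of its 4 differences. The median gap was 0.59 above and -0.52 below, and 213 genes above and 88 below had a gap of at least 2-fold. Among the genes above, 686 were detected on all 12 arrays and 21 on no reference array, and among those below 583 were detected on all 12 and 12 on no rEpiES array. These 21 and 12 genes passed the detection filter only through the side where they were higher. Their gaps and p-values rest on signals of the other side that were not well above background, and are descriptions. The counts depended on how the arrays were scaled. With intensities scaled to 1 median, 625 genes lay above (7.09%) and 210 below (2.38%), and with no scaling between arrays 383 lay above (4.35%) and 250 below (2.84%). The scaling moved the median balanced difference of all probes by less than 0.1, from 0.018 to 0.074 and -0.057.

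**Figure D1:**
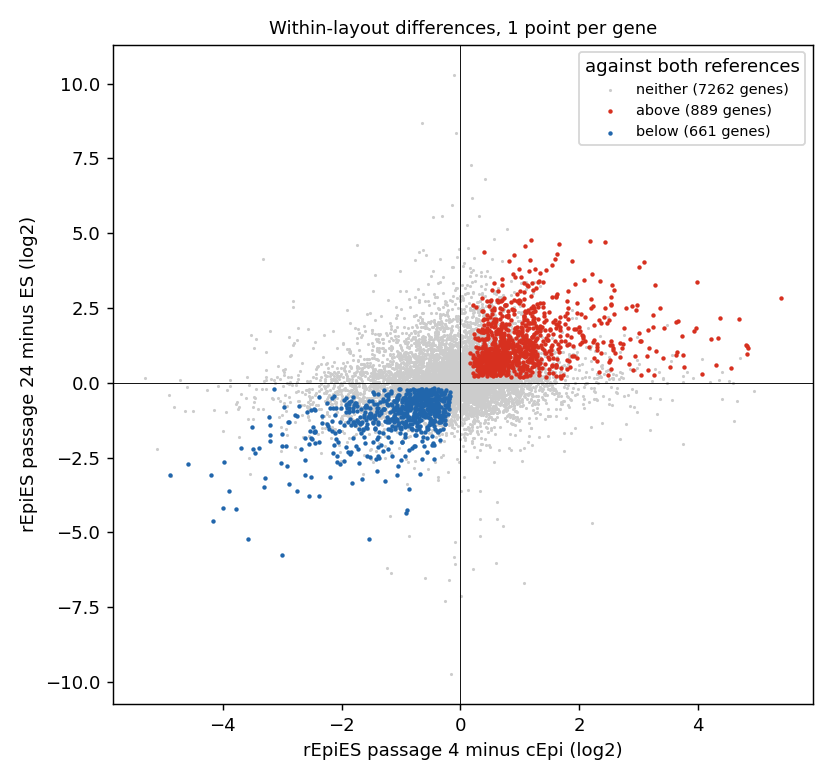
Difference of rEpiES passage 4 minus cEpi (x axis, log2) against rEpiES passage 24 minus ES (y axis, log2) for 8812 genes, 1 point each, red for the 889 genes above both references, blue for the 661 below both and grey for the rest. The differences on the 2 axes share no array; red points lie at the upper right and blue at the lower left by the definition of the call, and grey points at the top and bottom centre are genes for which passage 24 lay far from ES cells while passage 4 lay near cEpi.

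Among the 15 genes with the largest gaps above both references were a naive-state transcription factor, a coactivator of the AKT kinase and a germ-cell regulator. Klf2, a Kruppel-like factor of the naive network, read 12.48, 12.45 and 12.36 in ES cells, 11.98, 12.01 and 12.07 in cEpi, 15.33, 15.53 and 15.29 at passage 4, and 14.90, 14.83 and 15.05 at passage 24. All rEpiES arrays were more than 2 log2 units above every reference array, with a gap of 2.50 ± 0.084 (SE; largest of the 4 adjusted p = 1.81e-08). The other tested Klf2 probe was also above both references, with a gap of 3.21. Tcl1, which binds and activates AKT and is linked to self-renewal of ES cells, read 11.19, 11.42 and 11.76 in ES cells, 8.80, 8.76 and 9.04 in cEpi, 14.26, 14.32 and 14.20 at passage 4, and 14.39, 14.26 and 14.25 at passage 24. Its probe was not well above background on any cEpi array, its levels at passage 4 and passage 24 overlapped, and rEpiES exceeded ES cells by 2.80 ± 0.14 (largest adjusted p = 2.83e-07). Against cEpi, Tcl1 was at least 42-fold higher at passage 4 and at least 43.3-fold higher at passage 24, counting each cEpi array at the higher of its own signal and the lowest signal detected there, as for every such bound below.

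Other leading genes were not detected in at least 1 of the references. Got1l1, a relative of aspartate aminotransferase, read 8.03, 8.26 and 8.89 in ES cells, 7.46, 8.25 and 8.09 in cEpi, 11.18, 11.30 and 11.17 at passage 4, and 11.65, 11.57 and 11.78 at passage 24. No reference array detected it. It was at least 7.08-fold higher at passage 4 and at least 9.68-fold higher at passage 24 than in ES cells. The detection filter admitted it only through rEpiES, as it did Inpp5d and Arid5b below. Its gap of 2.82 ± 0.24 (largest adjusted p = 7.64e-06) rests on reference signals not well above background and is a description. Inpp5d, which encodes the phosphoinositide phosphatase SHIP1, read 7.75, 7.51 and 8.35 in ES cells, 7.15, 7.10 and 8.43 in cEpi, 10.61, 10.42 and 10.65 at passage 4, and 11.61, 11.70 and 11.91 at passage 24. It too was detected on no reference array, was at least 5.89-fold above ES cells at passage 4, and rose further between the passages, by 1.18. Arid5b, an ARID-family DNA-binding protein, read 8.87, 8.21 and 8.56 in ES cells, 7.91, 8.56 and 9.04 in cEpi, 11.23, 11.37 and 11.29 at passage 4, and 11.17, 10.85 and 11.11 at passage 24, again with no detection in the references and with bounds of at least 5.65-fold over ES cells and 5.82-fold over cEpi at passage 24. Tfrc, the transferrin receptor through which cells take up iron, read 8.79, 9.95 and 8.64 in ES cells, 11.01, 10.62 and 11.26 in cEpi, 13.46, 13.32 and 13.41 at passage 4, and 13.85, 13.85 and 13.76 at passage 24, which set cEpi above ES cells and both rEpiES groups above cEpi (gap 2.43 ± 0.30, largest adjusted p = 7.56e-05).

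Sohlh2, a helix-loop-helix factor of early germ cells, read 7.60, 9.09 and 10.28 in ES cells, 8.34, 9.87 and 8.79 in cEpi, 11.52, 11.50 and 11.57 at passage 4, and 11.82, 11.78 and 11.96 at passage 24. The 6 rEpiES arrays spanned less than 0.5 log2 units while the reference arrays were spread and mostly undetected, 1 of 3 being detected in each reference (gap 2.53 ± 0.59, largest adjusted p = 0.00451). Grhl2, an epithelial grainyhead factor, had gaps of 2.20 ± 0.40 and 2.08 on its 2 probes, both called. Pramel39, a member of the PRAME family, stood at 8.19 to 9.81 in ES cells, 9.91 to 10.26 in cEpi, 13.12 to 13.35 at passage 4 and 12.57 to 12.88 at passage 24, and Gcnt2, a glycosyltransferase that branches poly-lactosamine chains, at 8.11 to 9.84 in ES cells, 8.90 to 9.28 in cEpi, 11.15 to 11.38 at passage 4 and 11.42 to 11.73 at passage 24. The remaining genes of these 15 were Nfatc2ip (2.55), Adap1 (2.26), Ttc39b (2.17), 1700029P11Rik (2.19) and AU018091 (2.02), with gaps in brackets. Of them Ttc39b lost its call without replicate 2 of passage 4 or of cEpi (largest adjusted p up to 0.0596). All 15 calls held under both other scalings, and that of Adap1 was lost when arrays were weighted by their quality.

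The 15 genes with the largest gaps below both references included Foxa2, Lhx1 and Msx1. Foxa2, a forkhead factor of node and endoderm, read 14.15, 14.33 and 14.12 in ES cells, 15.12, 15.06 and 15.01 in cEpi, 11.60, 11.41 and 11.48 at passage 4, and 8.42, 8.53 and 9.93 at passage 24. It was lower at passage 4 than on every reference array and lower again at passage 24, where 1 of 3 arrays detected it (gap -2.71 ± 0.33, largest adjusted p = 7.52e-05). Lhx1, a LIM-homeobox factor of the organiser, read 13.86, 13.82 and 14.38 in ES cells, 16.29, 16.30 and 16.26 in cEpi, 12.20, 12.06 and 12.12 at passage 4, and 8.31, 9.99 and 9.91 at passage 24. No array of passage 24 detected Lhx1, and ES cells and cEpi exceeded passage 24 at least 24.5-fold and 118-fold (gap -1.90 ± 0.38, largest adjusted p = 0.0019). Msx1, a homeobox target of BMP signals, read 11.06, 11.94 and 12.90 in ES cells, 12.20, 12.07 and 12.10 in cEpi, 8.75, 9.81 and 10.15 at passage 4, and 9.28, 7.17 and 8.05 at passage 24, with the ES arrays nearly 2 log2 units apart and the gap at -2.40 ± 0.59 (largest adjusted p = 0.00668). The Msx1 call was lost with quality weights on the arrays.

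Mycl, a member of the Myc family, read 14.73, 14.64 and 14.83 in ES cells, 15.71, 15.63 and 15.61 in cEpi, 12.97, 12.94 and 13.01 at passage 4, and 12.43, 12.59 and 12.48 at passage 24. Its replicate arrays lay within 0.2 log2 units of each other in every group, and all rEpiES arrays lay below all reference arrays (gap -1.75 ± 0.07, largest adjusted p = 8.15e-08). Foxq1, another forkhead factor, read 14.86, 15.01 and 14.94 in ES cells, 16.33, 16.31 and 16.32 in cEpi, 13.29, 13.32 and 13.33 at passage 4, and 9.78, 8.32 and 9.41 at passage 24, lowest at passage 24. Six2, known as a factor of kidney progenitors, stood at 12.50 to 12.78 in ES cells, 14.54 to 14.62 in cEpi, 10.31 to 11.03 at passage 4 and 8.81 to 9.18 at passage 24. Ackr3, a scavenging receptor for the chemokine CXCL12, stood at 12.70 to 12.97 in ES cells, 13.87 to 14.07 in cEpi, 10.45 to 11.03 at passage 4 and 10.62 to 11.47 at passage 24. Anpep, the cell-surface aminopeptidase N, and Sp8, a zinc-finger factor, were detected on no rEpiES array, and ES cells exceeded passage 4 at least 5.54-fold and 5.03-fold. Bdnf, a neurotrophin, had a gap of -1.62 ± 0.45, and Slc16a13, a monocarboxylate-transporter relative, of -1.86 ± 0.29. Ikbip was called on 1 probe (-2.02) but not on its other. Ctdspl (-1.88) and Greb1 (-1.71) lost their calls under both other scalings and Bdnf with scaling to 1 median. Greb1 also lost it without any 1 of the ES arrays or without replicate 2 or 3 of passage 4 (largest adjusted p up to 0.0964).

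**Figure D2:**
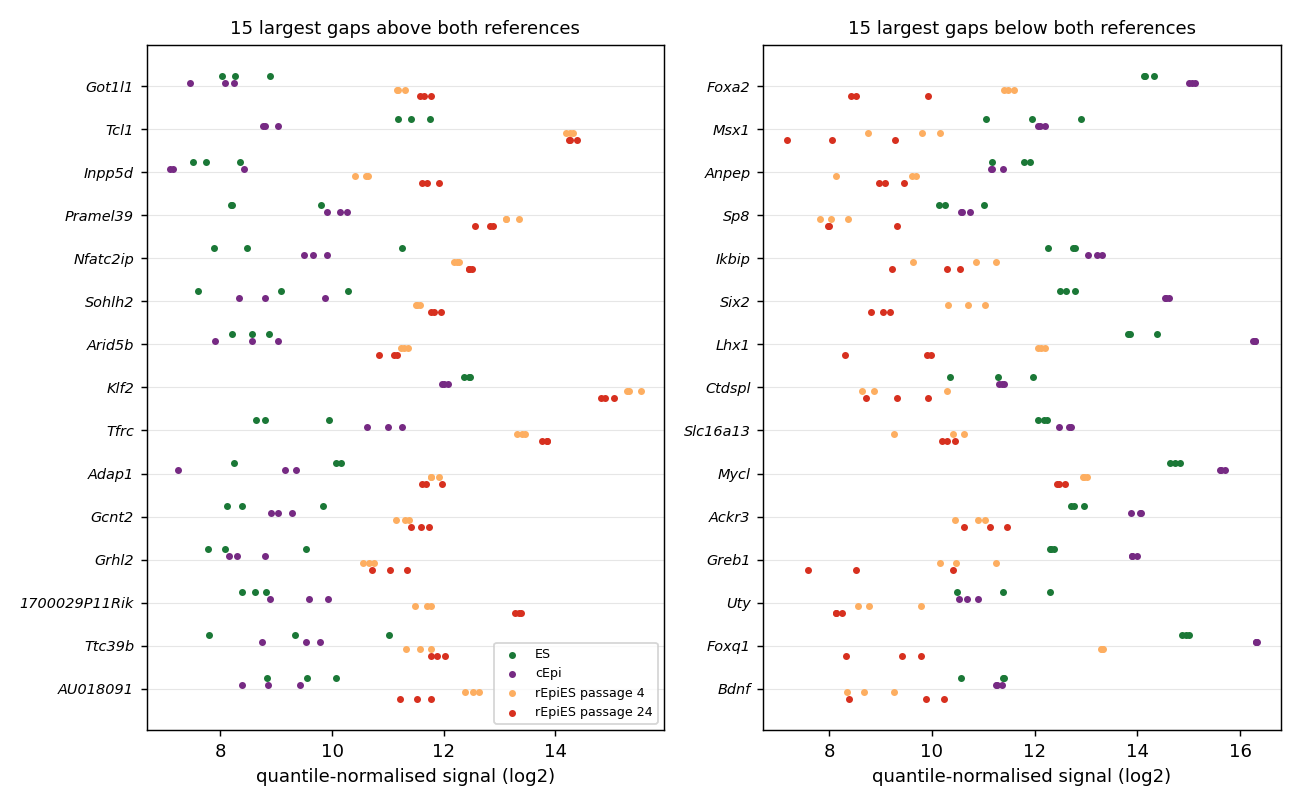
Quantile-normalised log2 signal (x axis) of the 15 genes with the largest gaps above (left) and below (right) both references, 1 point per array and 3 arrays per group (ES green, cEpi purple, rEpiES passage 4 orange, passage 24 red). In each row the orange and red points lie on 1 side of all green and purple points, and Foxa2, Lhx1 and Foxq1 are lower at passage 24 than at passage 4.

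The windows around the starts of 4 of these genes are shown because their transcripts carried the pattern: Klf2 and Tcl1 (naive state) and Dazl (germ line, described below) above, and Lhx1 below. Each is RefSeq sequence of build GRCm38.p6, from 250 bases before the gene's start to 50 after it, on the gene's own strand and 5′ to 3′, with the CpG dinucleotides, the targets of DNA methylation, in capitals.
Klf2, chr8:72318812-72319111, plus strand: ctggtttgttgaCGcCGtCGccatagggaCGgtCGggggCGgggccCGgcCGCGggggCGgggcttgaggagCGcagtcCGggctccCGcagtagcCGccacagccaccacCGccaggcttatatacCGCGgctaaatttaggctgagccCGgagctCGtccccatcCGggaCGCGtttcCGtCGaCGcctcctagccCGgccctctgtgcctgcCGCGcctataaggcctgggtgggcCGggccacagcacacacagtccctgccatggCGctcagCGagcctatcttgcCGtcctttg
Tcl1, chr12:105222688-105222987, minus strand: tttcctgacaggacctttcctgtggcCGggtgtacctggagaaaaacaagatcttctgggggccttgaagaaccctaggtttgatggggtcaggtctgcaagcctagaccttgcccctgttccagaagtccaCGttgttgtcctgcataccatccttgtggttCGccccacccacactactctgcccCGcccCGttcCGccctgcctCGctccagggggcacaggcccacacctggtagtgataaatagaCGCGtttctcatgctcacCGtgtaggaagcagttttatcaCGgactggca
Dazl, chr17:50293571-50293870, minus strand: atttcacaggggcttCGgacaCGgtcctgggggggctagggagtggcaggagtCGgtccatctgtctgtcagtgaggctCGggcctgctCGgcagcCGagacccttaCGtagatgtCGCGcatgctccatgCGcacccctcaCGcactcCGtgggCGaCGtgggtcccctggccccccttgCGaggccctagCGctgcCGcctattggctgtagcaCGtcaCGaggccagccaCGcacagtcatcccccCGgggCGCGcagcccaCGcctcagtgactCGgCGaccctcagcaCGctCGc
Lhx1, chr11:84525485-84525784, minus strand: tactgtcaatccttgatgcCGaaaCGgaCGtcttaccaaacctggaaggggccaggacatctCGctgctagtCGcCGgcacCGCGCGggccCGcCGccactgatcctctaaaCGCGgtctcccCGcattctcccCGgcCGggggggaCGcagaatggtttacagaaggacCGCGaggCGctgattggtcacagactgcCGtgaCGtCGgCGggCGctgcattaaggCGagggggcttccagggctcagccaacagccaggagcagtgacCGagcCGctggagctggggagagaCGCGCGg
Klf2 held 32 CpG, Lhx1 31, Dazl 28 and Tcl1 11. Of 5742 tested genes with exactly 1 window, 17.0% held at least as many CpG as Klf2, 19.4% as many as Lhx1, 27.0% as many as Dazl and 81.0% as many as Tcl1. The genes above both references had a median of 22 CpG per window (592 genes), those below 23 (432 genes) and all tested genes 21. The middle 50% of windows ran from 16 to 28, from 15.75 to 32 and from 13 to 28 CpG. No methylation was measured here, and the counts are a description of the sequence.

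Of 15 tested naive pluripotency genes 7 lay above both references, beside 10.1% of all genes, and none lay below. All 15 were higher in the balanced comparison, beside 35.5% of all genes, with a median of 2.03 beside 0.029 over all genes. The mean level of the 15 was 13.35 to 13.47 on ES arrays and 10.97 to 11.12 on cEpi arrays. It was 14.15 to 14.24 at passage 4 and 14.08 to 14.14 at passage 24. By arithmetic, the low level in cEpi adds to the balanced difference. The counts are descriptions of a list chosen with earlier results of these data known. Zfp42, the Rex1 zinc-finger protein, read 17.47, 17.55 and 17.89 in ES cells, 13.50, 13.36 and 13.74 in cEpi, 18.46, 18.25 and 18.38 at passage 4, and 18.56, 18.58 and 18.63 at passage 24. Every rEpiES array exceeded every ES array, and the gap of 0.73 ± 0.13 (largest adjusted p = 0.000853) was a 1.66-fold excess over the ES mean. Pecam1, an adhesion molecule of naive cells and of endothelium, read 11.68, 10.85 and 9.36 in ES cells, 8.96, 9.38 and 9.34 in cEpi, 12.22, 12.04 and 12.29 at passage 4, and 12.98, 13.05 and 13.14 at passage 24, with 1 of 3 arrays detected in each reference and a gap of 1.55 ± 0.46 (largest adjusted p = 0.0156). Icam1, another adhesion molecule, read 7.96 to 9.56 in ES cells, 9.93 to 10.33 in cEpi, 11.32 to 11.61 at passage 4 and 12.45 to 12.53 at passage 24 and was not detected in ES cells. Manba, the lysosomal beta-mannosidase, had a gap of 0.39 ± 0.095 (largest adjusted p = 0.0065) and lost its call with array weights, and Gbx2, a homeobox target of STAT3, one of 0.25 ± 0.089, which lost its call in 9 of 12 fits without 1 array, all but those without ES replicate 3 or without replicate 2 or 3 of passage 4 (largest adjusted p up to 0.114). With Klf2 and Tcl1 these make the 7. Under each of the other scalings 9 of the 15 were above. The shares of all genes were 7.09% with scaling to 1 median and 4.35% with no scaling between arrays.

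The 8 remaining naive genes were higher in the balanced comparison without being outside both references. Klf4, a factor of the Yamanaka set, read 13.68, 13.82 and 13.87 in ES cells, 12.21, 12.36 and 12.35 in cEpi, 14.66, 14.56 and 14.55 at passage 4, and 13.84, 13.83 and 13.77 at passage 24, so that passage 4 exceeded ES cells while passage 24 overlapped them. Dppa3, a maternal and germ-line protein that protects methylation, had a balanced difference of 2.03 ± 0.098, but its means in rEpiES, 16.02 at both passages, lay below the 16.62 of ES cells. Nr5a2 (1.67), Jam2 (2.08), Tbx3 (1.18), Spic (0.98), Tfcp2l1 (0.81) and Klf5 (0.25) made up the rest, with balanced differences in brackets (adjusted p up to 0.0153).

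Of 15 core pluripotency genes 3 lay above both references, beside 10.1% of all genes, and none below, beside 7.5%. Dppa4, a chromatin-binding protein of pluripotent cells, read 14.26, 14.39 and 14.72 in ES cells, 11.37, 10.80 and 11.21 in cEpi, 15.89, 15.80 and 15.77 at passage 4, and 16.55, 16.52 and 16.67 at passage 24. Its order was cEpi, ES cells, passage 4 and passage 24, with no overlap between groups (gap 1.36 ± 0.15, largest adjusted p = 4.76e-05). Dppa5a, an RNA-binding protein, read 19.96, 20.06 and 19.77 in ES cells, 15.99, 16.13 and 16.08 in cEpi, 20.65, 20.60 and 20.61 at passage 4, and 20.48, 20.29 and 20.52 at passage 24, a gap of 0.50 ± 0.09, and Utf1, a chromatin-associated factor, had the narrow gap of 0.17 ± 0.054 (largest adjusted p = 0.0215), which lost its call without replicate 1 or 2 of passage 4 (largest adjusted p up to 0.0783). Pou5f1, which encodes Oct4, read 18.41, 18.57 and 19.02 in ES cells, 17.67, 17.72 and 17.58 in cEpi, 18.85, 18.80 and 18.82 at passage 4, and 18.91, 18.94 and 18.81 at passage 24. All rEpiES arrays of Pou5f1 lay above cEpi and within the range of the ES arrays, and its balanced difference was 0.69 ± 0.095 (adjusted p = 0.000117). Sox2, the partner of Oct4, read 17.37, 17.44 and 17.41 in ES cells, 15.62, 15.75 and 15.90 in cEpi, 17.30, 17.32 and 17.37 at passage 4, and 17.17, 17.23 and 17.07 at passage 24, with both passages above cEpi and no rEpiES array above any ES array (balanced 0.66 ± 0.055, adjusted p = 3.63e-06).

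Germ-cell genes were above both references for 5 of 15 tested, and Kit, a receptor of germ-cell migration, was below both (-0.49 ± 0.10, lost under both other scalings). Among all genes 10.1% were above and 7.5% below. Dazl, an RNA-binding protein of the germ line, read 10.99, 10.74 and 9.26 in ES cells, 7.95, 8.28 and 6.81 in cEpi, 12.05, 11.98 and 12.13 at passage 4, and 12.47, 12.51 and 12.53 at passage 24. No cEpi array detected it, and it was at least 17.1-fold higher at passage 4 and 23.4-fold higher at passage 24 than in cEpi (gap 1.73 ± 0.46, largest adjusted p = 0.0095). Nanos3, which keeps primordial germ cells alive, read 8.98 to 10.42 in ES cells, 9.85 to 9.99 in cEpi, 10.54 to 11.00 at passage 4 and 10.99 to 11.07 at passage 24 (gap 0.85 ± 0.29, largest adjusted p = 0.0303). Dnd1, an RNA-binding protein of germ cells, had a gap of 0.68 ± 0.24, Tex19.1, a protein that restrains retrotransposons, of 0.30 ± 0.09 and Rhox5, an X-linked homeobox gene, of 0.27 ± 0.071. Nanos3 lost its call without scaling between arrays and without 1 of 5 arrays (replicates 2 and 3 of passage 4 and any cEpi array, largest adjusted p up to 0.0957). Dnd1 lost it without 1 of 7 arrays (ES replicates 1 and 2, replicates 1 and 3 of passage 4 and any of passage 24, up to 0.121), and Tex19.1 without ES replicate 2 or replicate 1 of passage 24 (up to 0.064). The calls of Dazl and Dnd1 were also lost with quality weights on the arrays. In the balanced comparison 11 of the 15 were higher and 3 lower, beside 35.5% and 32.4% of all genes.

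LIF is the cytokine of the rEpiES medium, and STAT3 its transcription factor. Of 13 tested genes of this pathway 3 were above both references, beside 10.1% of all genes, and none below, beside 7.5%. In the balanced comparison 7 were higher and none lower, beside 35.5% and 32.4%. Under each of the other scalings 2 were above, beside 7.09% of all genes with scaling to 1 median and 4.35% with no scaling between arrays. Stat3 itself read 12.15, 11.61 and 12.40 in ES cells, 13.00, 12.87 and 12.97 in cEpi, 13.49, 13.42 and 13.45 at passage 4, and 13.92, 14.01 and 13.89 at passage 24. Its gap of 0.51 ± 0.16 (largest adjusted p = 0.0222) was lost under both other scalings (largest adjusted p 0.546 and 0.956) and without replicate 1 or 3 of passage 4 or replicate 2 or 3 of cEpi (up to 0.0705). Pim3, a serine kinase induced by STAT3, read 14.07, 13.86 and 14.54 in ES cells, 12.78, 12.88 and 12.63 in cEpi, 15.40, 15.32 and 15.27 at passage 4, and 15.29, 15.23 and 15.43 at passage 24, with all rEpiES arrays above all ES arrays (gap 1.16 ± 0.15, largest adjusted p = 0.000126), and Gbx2 was the third. The receptor subunit Il6st (0.067 ± 0.051, adjusted p = 0.275) and the kinase Jak1 (-0.036 ± 0.092, adjusted p = 0.744) did not pass the balanced test. The feedback inhibitor Socs3 was 0.31 ± 0.067 higher (adjusted p = 0.00243) without lying outside both references.

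FGF signals drive naive cells toward the later epiblast. Of 17 tested genes 1 was above and 2 below both references, beside 10.1% and 7.5% of all genes. Etv5, an ETS factor that responds to FGF and ERK, read 14.07, 14.16 and 14.10 in ES cells, 13.21, 13.23 and 13.23 in cEpi, 15.96, 16.05 and 15.95 at passage 4, and 15.95, 15.87 and 16.01 at passage 24. The passages overlapped each other and lay far above both references (gap 1.83 ± 0.06, largest adjusted p = 2.35e-08). Fgf5, the ligand that marks the post-implantation epiblast, read 15.87, 15.93 and 15.77 in ES cells, 17.36, 17.45 and 17.39 in cEpi, 14.50, 14.53 and 14.51 at passage 4, and 12.45, 12.39 and 12.54 at passage 24, so passage 4 was below ES cells and passage 24 lower still (gap -1.34 ± 0.065, largest adjusted p = 2.83e-07). Fgf8, a ligand of the streak, read 14.19, 14.23 and 14.14 in ES cells, 15.03, 15.02 and 15.10 in cEpi, 13.17, 13.26 and 13.24 at passage 4, and 10.54, 10.82 and 11.10 at passage 24, in the same order (gap -0.97 ± 0.12, largest adjusted p = 8.46e-05). Spry2, a feedback inhibitor of the pathway, was lower in the balanced comparison by -0.50 ± 0.095 (adjusted p = 0.00102), and Spry4 higher by 0.39 ± 0.10 (adjusted p = 0.00883).

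Of 17 genes of the post-implantation epiblast 2 were above both references, near the 10.1% of all genes, and 3 were below, beside 7.5%. Under each of the other scalings 1 was above, beside 7.09% of all genes with scaling to 1 median and 4.35% with no scaling between arrays. Otx2, a homeobox factor of that state, read 17.02, 17.06 and 17.23 in ES cells, 17.61, 17.62 and 17.70 in cEpi, 15.87, 15.91 and 15.79 at passage 4, and 16.34, 16.29 and 16.44 at passage 24, lowest at passage 4 (gap -0.75 ± 0.075, largest adjusted p = 1.78e-05). The Otx2 call was lost under both other scalings, with largest adjusted p of 0.0581 and 0.0649. Sox4, an HMG-box factor, read 14.06 to 14.11 in ES cells, 13.92 to 14.04 in cEpi, 12.92 to 13.24 at passage 4 and 12.49 to 12.70 at passage 24 (gap -0.94 ± 0.091, largest adjusted p = 1.49e-05). Sox3, a relative of Sox2 on the X chromosome, went the other way and read 12.76, 12.92 and 12.36 in ES cells, 13.76, 13.86 and 13.89 in cEpi, 15.03, 15.22 and 14.93 at passage 4, and 15.78, 15.70 and 15.87 at passage 24, a gap of 1.22 ± 0.14 above both (largest adjusted p = 3.75e-05). Zic5, a zinc-finger factor, was above by 0.91 ± 0.17 and lost its call under both other scalings. Dnmt3b, a de novo DNA methyltransferase, read 18.95, 18.93 and 19.28 in ES cells, 17.68, 17.61 and 17.68 in cEpi, 16.98, 16.99 and 17.01 at passage 4, and 17.99, 18.15 and 17.99 at passage 24. Passage 4 lay below both references and passage 24 between them, so it was not called outside, and its balanced difference was -0.84 ± 0.068 (adjusted p = 2.93e-06).

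Of 15 primitive-streak and mesendoderm genes 6 lay below both references, beside 7.5% of all genes, and 11 were lower in the balanced comparison, beside 32.4% (median -1.45). The same number, 6, was found under both other scalings, beside 2.38% of all genes with scaling to 1 median and 2.84% with no scaling between arrays. Mixl1, a homeobox factor of the streak, read 15.41, 15.51 and 15.40 in ES cells, 14.74, 14.83 and 14.72 in cEpi, 13.36, 13.10 and 13.23 at passage 4, and 9.91, 10.20 and 10.55 at passage 24. It was higher in ES cells than in cEpi, and rEpiES lay below both (gap -1.53 ± 0.14, largest adjusted p = 1.01e-05). Evx1, another streak homeobox factor, read 12.14 to 12.42 in ES cells, 12.99 to 13.09 in cEpi, 10.85 to 11.11 at passage 4 and 9.17 to 10.16 at passage 24 (gap -1.38 ± 0.21, largest adjusted p = 0.00034). Foxa2, Lhx1, Fgf8 and Wnt3, the ligand that starts the streak, were the others. Wnt3 read 11.92 to 12.26 in ES cells, 11.46 to 11.50 in cEpi, 10.43 to 11.25 at passage 4 and 8.67 to 9.59 at passage 24, and its call, at a largest adjusted p of 0.0461, was lost without 1 of 9 arrays (all but replicate 3 of passage 4 and replicates 2 and 3 of passage 24, up to 0.16). Eomes, a T-box factor, was lower in the balanced comparison by -1.23 ± 0.083, but its mean at passage 4, 13.91, lay between those of ES cells, 13.40, and cEpi, 14.79.

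BMP, WNT and Nodal pattern the streak. In the BMP list 1 of 15 was above and 4 below, beside 10.1% and 7.5% of all genes. The ligand Bmp4 read 14.11, 13.86 and 14.36 in ES cells, 13.24, 13.26 and 13.19 in cEpi, 14.85, 14.84 and 14.86 at passage 4, and 14.95, 14.83 and 14.91 at passage 24, above both references by 0.74 ± 0.11 (largest adjusted p = 0.00029). The targets Msx1 and Msx2 (-0.34 ± 0.096), the inhibitory Smad6 (-0.83 ± 0.17) and the decoy receptor Bambi (-0.21 ± 0.065) were below. Under the other scalings only Msx1 of the 4 kept its call. Bambi also lost it without ES replicate 1 or replicate 2 of passage 4 (up to 0.0905), and Msx2 without replicate 2 of passage 4 (0.0529). Of 13 Nodal and Activin genes none was outside, and Nodal itself did not pass the balanced test (0.014 ± 0.06, adjusted p = 0.853).

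In the WNT list none of 21 was above, 5 were below and 16 were lower in the balanced comparison (median -1.09). The shares of all genes were 10.1%, 7.5% and 32.4%. Wnt3, described with the streak genes, was 1 of the 5. The mean level of the 21 was 13.2 to 13.21 on cEpi arrays and 11.96 to 12.43 on ES arrays. It was 11.92 to 12.1 at passage 4, overlapping the ES arrays, and 11 to 11.21 at passage 24. Lgr5, a receptor for R-spondins, read 10.45, 10.87 and 10.75 in ES cells, 12.68, 12.63 and 12.67 in cEpi, 9.62, 8.84 and 9.65 at passage 4, and 7.23, 7.85 and 7.45 at passage 24. It was detected on no array of passage 24, which ES cells exceeded at least 8.13-fold and cEpi at least 31.9-fold (gap -1.32 ± 0.23, largest adjusted p = 0.000799). Dkk1, a secreted WNT inhibitor, read 12.83, 12.92 and 13.14 in ES cells, 16.39, 16.36 and 16.35 in cEpi, 12.43, 12.36 and 12.35 at passage 4, and 8.84, 8.66 and 8.81 at passage 24, close to ES cells at passage 4 and undetected at passage 24 (gap -0.59 ± 0.087). Rspo3, an R-spondin ligand, read 11.55 to 11.89 in ES cells, 13.39 to 13.44 in cEpi, 10.87 to 11.54 at passage 4 and 8.58 to 8.63 at passage 24 (gap -0.52 ± 0.15), and the receptor Fzd7 had a gap of -0.33 ± 0.081 on the probe used and no call on its other. The calls of Dkk1, Rspo3 and Fzd7 were lost under both other scalings. Of the 21 genes 2 lay below with scaling to 1 median, beside 2.38% of all genes. With no scaling between arrays 3 did, beside 2.84%.

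**Figure D3:**
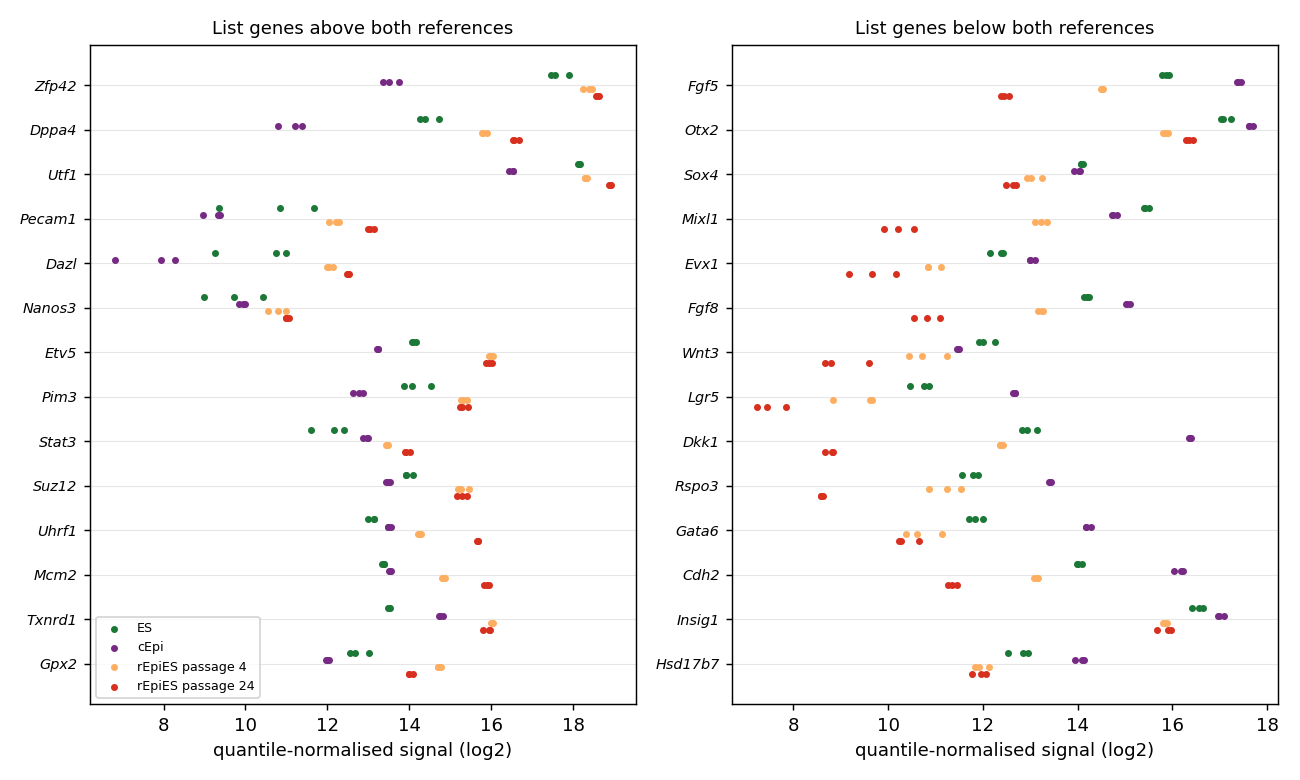
Quantile-normalised log2 signal (x axis) of 14 list genes above (left) and 14 below (right) both references, 1 point per array and 3 arrays per group (ES green, cEpi purple, rEpiES passage 4 orange, passage 24 red). Fgf5, Mixl1, Fgf8, Dkk1, Rspo3 and Cdh2 drop again from passage 4 to passage 24, whereas Etv5, Pim3 and Suz12 overlap between the passages.

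Endoderm markers were below both references for 2 of 11 genes, Gata6 and Lamb1, and 8 were lower in the balanced comparison. Among all genes 10.1% were above both references, 7.5% were below and 32.4% were lower in the balanced comparison. Gata6, a zinc-finger factor of primitive endoderm, read 12.01, 11.71 and 11.83 in ES cells, 14.18, 14.29 and 14.17 in cEpi, 11.14, 10.38 and 10.60 at passage 4, and 10.66, 10.27 and 10.22 at passage 24, with passage 4 and passage 24 overlapping (gap -1.15 ± 0.19, largest adjusted p = 0.000588). Lamb1, a laminin chain, had a gap of -0.20 ± 0.077 (largest adjusted p = 0.0462), lost under both other scalings and without any array but ES replicate 1 (up to 0.135). Cdh2, the N-cadherin gene and the 1 gene outside among 13 mesenchymal genes, read 13.98, 14.00 and 14.08 in ES cells, 16.23, 16.03 and 16.17 in cEpi, 13.08, 13.16 and 13.14 at passage 4, and 11.34, 11.46 and 11.27 at passage 24 (gap -0.90 ± 0.075, largest adjusted p = 7.31e-06), while its other probe was not called. The epithelial junction list had 3 of 18 above (Cldn4 0.30, Jup 0.34, Ap1m2 0.44) and 1 below (Tjp1 -0.27), of which Ap1m2 alone kept its call under the other scalings. Calls were also lost for Jup without any array of passage 24 or cEpi (up to 0.0987), for Cldn4 without replicate 1 of passage 24 (0.0529) and for Tjp1 without ES replicate 1 or 2 or replicate 1 or 2 of passage 4 (up to 0.111).

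Among 17 genes of DNA methylation and histone modification 5 were above both references and 2 below, beside 10.1% and 7.5% of all genes. Suz12, a subunit of the Polycomb complex PRC2, read 14.09, 13.92 and 13.93 in ES cells, 13.54, 13.43 and 13.48 in cEpi, 15.19, 15.26 and 15.46 at passage 4, and 15.28, 15.41 and 15.16 at passage 24, with no change detected between the passages (gap 1.31 ± 0.095, largest adjusted p = 2.76e-06). Ezh2, the catalytic subunit of that complex, read 16.68 to 16.75 in ES cells, 15.77 to 15.96 in cEpi, 15.49 to 15.61 at passage 4 and 15.49 to 15.69 at passage 24 and lay below both (gap -0.27 ± 0.075, largest adjusted p = 0.00871, lost with scaling to 1 median). Uhrf1, which brings the maintenance methyltransferase to replicating DNA, read 13.00, 13.13 and 13.14 in ES cells, 13.49, 13.48 and 13.55 in cEpi, 14.22, 14.29 and 14.27 at passage 4, and 15.68, 15.68 and 15.66 at passage 24, rising by 1.42 from passage 4 to passage 24 (gap 0.75 ± 0.059, lost without scaling between arrays). Dnmt1, that methyltransferase, read 9.36, 10.19 and 9.94 in ES cells, 9.70, 10.24 and 10.13 in cEpi, 12.11, 11.79 and 12.05 at passage 4, and 10.81, 10.63 and 10.53 at passage 24, highest at passage 4 (gap 0.63 ± 0.21). Its call was lost under both other scalings and without replicate 1 or 2 of passage 24 or replicate 1 of cEpi (up to 0.0985). Kat7, a histone acetyltransferase, averaged 10.27 ± 0.82 in ES cells, 13.24 ± 0.013 in cEpi, 14.42 ± 0.054 at passage 4 and 15.05 ± 0.081 at passage 24 (mean ± SD, n = 3) and was detected on no ES array, while the deacetylases Hdac1 (0.38) and Hdac2 (-0.45) lay above and below and lost their calls under both other scalings. Dnmt3l, a cofactor of de novo methylation, read 17.21, 17.25 and 17.21 in ES cells, 12.55, 12.53 and 12.65 in cEpi, 16.75, 16.83 and 16.79 at passage 4, and 17.22, 17.24 and 17.31 at passage 24. It overlapped between ES cells and passage 24 and was not outside.

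Of 21 imprinted genes 2 were above both references, a share near the 10.1% of all genes, and none was below, beside 7.5%. In the balanced comparison 3 were higher and 11 lower, beside 35.5% and 32.4% of all genes. Impact, expressed from the paternal copy, read 12.57, 12.31 and 12.26 in ES cells, 13.74, 13.62 and 13.77 in cEpi, 14.89, 14.87 and 14.95 at passage 4, and 15.26, 15.39 and 15.20 at passage 24 (gap 1.20 ± 0.092, largest adjusted p = 3.03e-06). The amino-acid transporter gene Slc38a4 had a gap of 0.35 ± 0.065, lost under both other scalings. The balanced falls of Phlda2 (-2.35 ± 0.076), Asb4 (-2.31 ± 0.24) and Peg10 (-1.72 ± 0.095) did not reach below both references.

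Of 19 cell-cycle genes 5 were above both references, beside 10.1% of all genes, and none below, beside 7.5%. The 5 became 2 with scaling to 1 median, beside 7.09% of all genes, and 1 with no scaling between arrays, beside 4.35%. Mcm2, a subunit of the replicative helicase, read 13.34, 13.38 and 13.37 in ES cells, 13.51, 13.52 and 13.55 in cEpi, 14.79, 14.87 and 14.83 at passage 4, and 15.90, 15.82 and 15.94 at passage 24. Both references lay within 0.3 log2 units, and passage 4 and passage 24 stood above them in turn (gap 1.31 ± 0.056, largest adjusted p = 6.24e-08). Mcm6 (0.56), the cyclin Ccnd3 (0.37) and the mitotic kinase Aurka (0.32) lost their calls under both other scalings. Top2a, a topoisomerase of mitosis (0.22), lost it without scaling between arrays and without ES replicate 1 or replicate 1 or 2 of passage 24 (up to 0.0819). In the list of heat shock and oxidative stress 3 of 12 were above and none was below. In the balanced comparison 9 were higher and 1 lower, beside 35.5% and 32.4% of all genes. Txnrd1, thioredoxin reductase, read 13.47, 13.53 and 13.51 in ES cells, 14.81, 14.72 and 14.75 in cEpi, 16.00, 16.02 and 16.04 at passage 4, and 15.94, 15.96 and 15.81 at passage 24 (gap 1.15 ± 0.06, largest adjusted p = 1.21e-07). Gpx2, a glutathione peroxidase, read 12.55 to 13.02 in ES cells, 11.96 to 12.05 in cEpi, 14.70 to 14.78 at passage 4 and 13.98 to 14.10 at passage 24 (gap 1.28 ± 0.11, largest adjusted p = 5.06e-06). Mt1, a metallothionein, had a gap of 0.64 ± 0.20, with a call on its other probe too (1.15), and lost the first without replicate 3 of passage 24 (0.0705).

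Cholesterol synthesis showed how much a list could turn on scaling. The shares of all genes, for this list and those after it, were 10.1% above both references and 7.5% below. Of 12 tested genes 5 lay below both references, Insig1 (-0.70 ± 0.091), Hsd17b7 (-0.82 ± 0.13), Sc5d (-0.61 ± 0.11), Idi1 (-0.36 ± 0.06) and Sqle (-0.25 ± 0.057), and under both other scalings none did. The other Idi1 probe was not called (largest adjusted p = 0.225), with a passage 24 mean of 15.74 above the ES mean of 15.27. Insig1, the sterol-sensing brake on the pathway, read 16.64, 16.56 and 16.42 in ES cells, 17.09, 16.96 and 16.99 in cEpi, 15.83, 15.79 and 15.89 at passage 4, and 15.90, 15.96 and 15.67 at passage 24. The balanced comparison had 11 of 12 lower, beside 32.4% of all genes, and 10 with scaling to 1 median. In oxidative phosphorylation 3 of 18 were above (Uqcrc1 0.86, Sdha 0.38, Cox4i1 0.30) and Cycs, cytochrome c, was below (-0.39). Cycs kept its call under both other scalings, although its other probe was not called, Sdha and Cox4i1 lost theirs under both, and Uqcrc1 without scaling between arrays. Glycolysis and hypoxia had Aldoa, an aldolase, above (0.46 ± 0.086) among 17, and amino-acid and unfolded-protein stress had Asns (0.20 ± 0.078) and Slc3a2 (0.24 ± 0.064) among 18. All 3 were lost under both other scalings, and Asns also without 1 of 9 arrays (all but ES replicates 1 and 3 and replicate 2 of passage 24, up to 0.156).

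**Figure D4:**
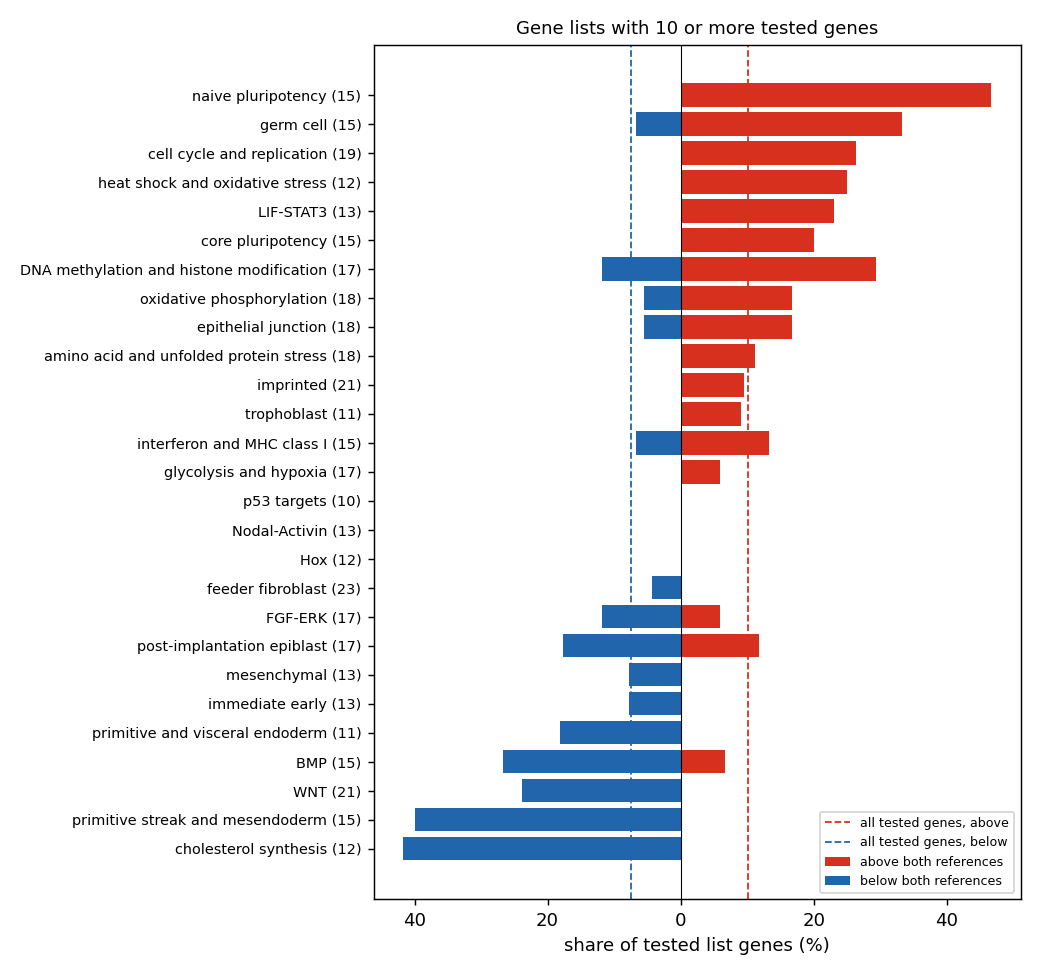
Share of the tested genes of each list (number in brackets) that lay above both references (red bars, to the right) or below both (blue bars, to the left), in percent, with dashed lines at the shares of all 8812 tested genes, 10.1% above and 7.5% below. Lists of fewer than 10 tested genes are not drawn. Naive pluripotency has the longest bar to the right, 7 of 15, and cholesterol synthesis, 5 of 12, and the primitive streak, 6 of 15, the longest to the left.

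Markers of other cells the cultures could hold were set beside these results. Among all genes 10.1% were above both references and 7.5% below, and 35.5% were higher and 32.4% lower in the balanced comparison. Of 23 tested fibroblast genes, which would mark feeders, none was above and 1, the collagen Col1a2, was below both references (-0.52 ± 0.14, lost under both other scalings), and 18 were lower in the balanced comparison. The mean level of the 23 was 15.85 to 15.89 on cEpi arrays, 13.46 to 13.86 in ES cells, 14.11 to 14.18 at passage 4 and 13.22 to 13.35 at passage 24, highest in cEpi, with passage 4 above and passage 24 below the ES arrays. Its part in the results was not tested. Trophoblast had Tfap2c, which primordial germ cells also express, above both (1.06 ± 0.11, 1 of 11), but 7 of the 11 were lower and 2 higher in the balanced comparison. Neural ectoderm had Pax6 above (1.34 ± 0.34) and Msx1 below, of 8, with 1 higher and 4 lower in the balanced comparison. Blood and vessel markers had Tek above (0.90 ± 0.25, lost with array weights and in the trended robust fit) and the receptor Kdr below (-1.29 ± 0.35), of 7. In the balanced comparison 1 of them was higher and 3 were lower. Interferon and MHC class I had Ifitm1 (0.33) and Bst2 (0.37) above and Isg15 (-0.38) below, of 15. Immediate early genes had Jun below (-0.35 ± 0.077, of 13), neuronal genes Chga below (-0.20, of 6) and genes of the 2-cell embryo Eif1a above (0.24, of 4). Hox genes (12) and p53 targets (10) had none outside, and in the balanced comparison 9 Hox genes were lower and 2 higher. The mean level of the 12 Hox genes was 11.32 to 11.36 on cEpi arrays and 9.27 to 9.79 on ES arrays. Passage 4, at 9.44 to 9.6, and passage 24, at 9.41 to 9.49, lay within the range of the ES arrays. The calls of Isg15, Chga, Bst2 and Eif1a were lost under both other scalings and without at least 1 array, with largest adjusted p up to 0.122, 0.128, 0.0605 and 0.0547, and that of Ifitm1 was lost without scaling between arrays.

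Across chromosomes, the shares farthest from those of all genes (10.1% above and 7.5% below) are given here, chosen after their values were seen and with no test. Genes above both references took 17.9% of 195 tested genes on chromosome 18, 13.7% of 300 on chromosome 16 and 12.4% of 469 on chromosome 8, and 6.76% of 281 on chromosome 12. Genes below both took 12.5% on chromosome 12, 11.2% on chromosome 10 and 4.48% on chromosome 8. On the X chromosome the shares were 9.09% above and 10.1% below of 308. Both tested genes of the Y chromosome were below. Uty, a demethylase relative, read 10.49, 12.29 and 11.39 in ES cells, 10.69, 10.53 and 10.89 in cEpi, 8.78, 8.56 and 9.79 at passage 4, and 8.24, 8.14 and 8.13 at passage 24, with no rEpiES array detected (gap -1.66 ± 0.42, largest adjusted p = 0.00754). Eif2s3y, a translation factor subunit named after its values were seen, read 16.31, 16.23 and 16.44 in ES cells, 15.61, 15.47 and 15.52 in cEpi, 14.07, 14.18 and 14.15 at passage 4, and 13.35, 13.39 and 13.34 at passage 24 (gap -1.40 ± 0.07, largest adjusted p = 1.57e-07). The labels give no sex for any line.

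The passages also differed from each other among the genes outside. They lie in different file layouts, as do the references, so layout cannot be told apart from passage or from reference in the shares that follow. Passage 24 exceeded passage 4 for 38.1% of the genes above and was lower for 5.74%, beside 18.4% and 19.8% of all genes. For the genes below the shares were 5.3% and 43.1%. The genes were selected on these same arrays, so the shares given here for passages and references are descriptions and not tests. Because the rule asks only that both passages lie beyond the references, a gene far out at 1 passage can qualify by a small margin at the other. The references differed too: cEpi exceeded ES cells for 32.2% of the genes above and 43.3% of those below, beside 40.6% of all genes, and was lower for 31.7% and 17.4%, beside 28.8%. 

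The within-layout differences share no array and can be set against each other. Passage 4 minus cEpi was called for 8583 probes and passage 24 minus ES for 9089. They were called in the same direction for 4044 probes, 47.1% of the first and 44.5% of the second, and in opposite directions for 1718. Across the 15235 probes, which are not independent replicates, Pearson's r was 0.299, given as a description. The difference between the within-layout differences was itself called for 53.1% of probes. A probe with passage 24 above both references and passage 4 below both, all 4 differences called, occurred 18 times, and the reverse 31 times.

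Large balanced differences did not have to be shared by the passages. Of the 10 named genes with the largest balanced differences among those not outside both references, 9 stood apart at passage 24. In these 9 the passage 24 arrays lay farthest from the rest, and differences between cells and differences in how those arrays or their probe annotation were handled cannot be told apart from the files, so the folds are ratios of array signals. Tfec, a basic helix-loop-helix factor, read 8.88, 7.71 and 7.94 in ES cells, 8.10, 8.05 and 9.35 in cEpi, 8.36, 8.54 and 8.26 at passage 4, and 18.54, 18.35 and 18.54 at passage 24, detected at passage 24 and on no other array, where it was at least 1.26e+03-fold above ES cells. Enpep (8.36), Dnajc27 (8.68), Olfr1061 (7.27) and Agr2 (6.83) were likewise far higher at passage 24 than on the other arrays, with the difference of passage 24 minus ES in brackets. Ppp2ca, the catalytic subunit of protein phosphatase 2A, read 18.00, 18.10 and 18.15 in ES cells, 18.55, 18.54 and 18.56 in cEpi, 18.42, 18.38 and 18.36 at passage 4, and 8.47, 8.35 and 8.19 at passage 24, the opposite pattern, with no detection at passage 24 and ES cells at least 858-fold higher. Sdhb (-7.31), Bcl9l (-6.36) and Gfpt2 (-6.20) fell likewise. Sox17, an endoderm factor, differed in kind and read 11.82, 11.25 and 11.62 in ES cells, 16.16, 16.28 and 16.13 in cEpi, 11.14, 11.30 and 11.52 at passage 4, and 8.47, 7.56 and 9.32 at passage 24, highest in cEpi, with passage 4 overlapping the ES arrays.

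Near the threshold, Ifrd1 (gap 0.16, largest adjusted p = 0.0494) and Tmem40 (0.27, 0.048) were just inside above, and Ptp4a1 (0.285, 0.0507) and Atxn3 (1.10, 0.0507) just outside. Below, Dgcr6 (-0.17, 0.0499) and Nod1 (-0.91, 0.0495) were just inside and Pcbp2 (-0.19, 0.0511) just outside.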

How the data were processed

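Total RNA of 12 mouse samples was hybridised to Applied Biosystems AB1700 arrays of 33012 probes. Each deposited file holds a signal intensity on a linear scale, a signal-to-noise score and values that the authors quantile-normalised, per the headers, and that lie on a log2 scale. The deposited score and a quality code stand under exchanged headers in the cEpi and passage 4 files and were read by their contents. Scanner software is not given in the sources used here. Symbols came from the platform annotation: 14411 probes had 1, 247 several and 18354 none, and 14402 matched a RefSeq gene (GRCm38.p6) by gene ID. Probes with a score of 3 or more on all 3 arrays of a group were tested (15235), with limma 3.58.1 in R 4.3.3 (lmFit and eBayes, two-sided, 1 fit of 4 group means, 8 residual and 1.53 prior degrees of freedom) and Benjamini-Hochberg adjustment over all of them. The procedure was checked on simulated data. Each gene took its tested probe of highest mean. Named were the 15 largest gaps in each direction, every listed gene outside both references, 8 set pluripotency and epiblast genes and the 5 largest balanced rises and falls not outside. Eif2s3y, listed genes not outside and genes near the threshold were chosen after their values were seen. Members and lists were chosen with earlier results of these data known. The number of arrays limits precision. Arrays of like number did not deviate together (18 pairs, r from -0.035 to 0.037), so no block was used. Alternatives were other scalings of the intensity, other detection filters, array weights, a trended robust fit, blocks, dropped quality codes and each array left out.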

Additional observations from a re-analysis of the deposited data

Results flagged for a closer look

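For 82 of the 126 named genes the passage 4 minus cEpi difference and the passage 24 minus ES difference were not of the same size by the test of their difference (limma, adjusted p under 0.05, beside 53.1% of all tested probes). Many of the 126 were named for their values on these same arrays, and the 53.1% counts probes. The shares side by side are therefore a description and no test. The values below are the first minus the second, on the log2 scale, and no explanation was weighed. By arithmetic each value also equals ES minus cEpi, less passage 24 minus passage 4. A gene at the same level in both passages therefore has a value equal to its ES minus cEpi difference.

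Among the genes above both references the rise was larger from cEpi to passage 4 than from ES cells to passage 24 by 2.55 for Tcl1, 0.87 for Klf2, 1.60 for AU018091, 1.05 for Utf1, 2.57 for Dppa4, 4.05 for Dppa5a, 3.87 for Zfp42, 2.24 for Gbx2 and 3.24 for Manba. It was 2.23 for Tfap2c, 2.20 for Dazl, 1.81 for Dnd1, 3.78 for Tex19.1, 3.00 for Rhox5, 1.14 for Dnmt1, 0.52 for Suz12, 1.40 for Pim3 and 0.93 for Etv5. The value was 0.83 for Bmp4, 0.50 for Cldn4, 0.57 for Jup, 2.71 for Ap1m2, 1.45 for Gpx2 and 0.91 for Top2a.

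The rise was larger from ES cells to passage 24, giving a negative value, of -2.26 for Tfrc, -2.55 for 1700029P11Rik, -2.54 for Icam1, -1.89 for Sox3, -1.83 for Uhrf1, -0.83 for Hdac1, -3.60 for Kat7, -1.71 for Impact and -0.49 for Slc38a4. It was -1.38 for Stat3, -2.77 for Aldoa, -0.57 for Uqcrc1, -0.63 for Cox4i1, -0.34 for Slc3a2, -1.14 for Txnrd1, -2.47 for Ccnd3, -1.22 for Mcm2 and -0.44 for Aurka.

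Among the genes below both references a positive value, a larger fall from ES cells to passage 24, was found at 1.67 for Foxa2, 2.75 for Foxq1, 0.51 for Fgf5, 0.53 for Sox4, 3.69 for Mixl1, 2.37 for Wnt3, 1.54 for Fgf8, 0.41 for Kit and 0.84 for Ezh2. It was 0.95 for Rspo3, 0.63 for Tjp1 and 1.55 for Jun. A negative value, a larger fall from cEpi to passage 4, was found at -0.44 for Mycl, -1.47 for Ackr3, -1.04 for Otx2, -2.04 for Gata6, -0.65 for Col1a2, -1.32 for Bambi, -0.84 for Fzd7, -0.35 for Cdh2 and -1.10 for Idi1. It was -1.02 for Sqle, -1.26 for Hsd17b7, -1.22 for Sc5d, -0.48 for Insig1 and -2.94 for Chga.

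Of the pluripotency genes not outside both references, the value was 0.95 for Pou5f1, 1.82 for Sox2, 2.26 for Klf4 and 4.18 for Dnmt3l. For the genes with the largest balanced differences that were not outside both references it was -10.41 for Tfec, -8.43 for Enpep, -9.32 for Dnajc27, -7.09 for Olfr1061, -6.42 for Agr2, 9.58 for Ppp2ca, -1.76 for Sox17, 7.06 for Sdhb, 5.20 for Bcl9l and 4.96 for Gfpt2.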

How the results depend on the processing

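The balanced difference kept its direction for all named genes under all alternatives run. It kept its call in all but 1 of 2585 repeats, Sdha without scaling between arrays (0.345, adjusted p = 0.088). Most of these genes were named because all rEpiES arrays lay beyond all reference arrays, or for large balanced differences. Leaving out an array could not reverse the direction of the former. The repeats use these same arrays, so their outcome was largely fixed by the selection and is a description. The counts of probes outside both references moved more. Median scaling gave 1017 above and 409 below in place of 1386 and 1125, of which 813 and 370 were the same probes, and raised the share of balanced calls that were higher from 51.5% to 56.3%. No scaling between arrays gave 644 above and 492 below (570 and 395 the same) and a share of 45.5%. The 5505 probes called between the passages became 3498 with median scaling and 2912 with none. The cause was not tested. Of 111 named genes outside both references 66 kept the call under both scalings, 7 under 1 and 38 under neither. In alternatives chosen after seeing the data, only 1 passage was asked about, wherever the other lay. Passage 24 was above both references for 2613 probes and below for 2408, and passage 4 for 1814 and 1483. These counts need fewer differences and include the probes outside at both passages. Leaving out 1 array gave 1193 to 1656 probes above, 978 to 1232 below, 9266 to 10415 balanced, 7306 to 9028 for the difference of the within-layout differences and 4401 to 6655 between the passages, and 88 of the 111 genes kept their call throughout. A replicate block gave 1325 probes above and 1065 below, and under it Gbx2, Wnt3, Asns and Chga lost their calls. The layout as a block gave 7216 balanced calls against 9848. With array weights 93 of the 111 kept their call, and Adap1, Msx1, Ctdspl, Greb1, Bdnf, Utf1, Gbx2, Manba, Lamb1, Dazl, Dnd1, Msx2, Bambi, Fzd7, Rspo3, Tjp1, Isg15 and Tek lost it. Without a detection filter 83 kept it. The trended robust fit lost Wnt3, Dnmt1, Isg15 and Tek. ES arrays had the fewest detected probes and the widest spread between arrays, and a probe not well above background there has only a bound.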
